A study of Mus musculus with 6 samples.

Results

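The vacuolar H+-ATPase (V-ATPase) is the proton pump that acidifies lysosomes and, in osteoclasts, the space between the cell and the bone surface. The 10 genes described here, Tcirg1, Atp6v0a1, Atp6v0a2, Atp6v0c, Atp6v0d1, Atp6v1a, Atp6v1b2, Atp6v1c1, Atp6v1e1 and Atp6v1h, encode subunits of this pump and were taken by symbol from a table of 24940 mouse genes. All 10 had a mean of at least 0.5 RPKM (reads per kilobase of transcript, scaled to the mapped reads of the library) and were among the 11595 genes tested.

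The measurements came from bone marrow-derived macrophages (BMMs), which serve as osteoclast precursors, and RNA-seq was used to ask how RANKL, the cytokine that drives osteoclast formation, and a leaf extract (LE) of the shrub Abeliophyllum distichum change their transcripts. All cultures received M-CSF at 30 ng/mL and were harvested after 3 days. The -R cultures received M-CSF alone, the +R cultures also received RANKL at 100 ng/mL, and the R+LE cultures received RANKL at 100 ng/mL with LE at 10 μg/mL. Each condition had 2 libraries. The sample labels name C57BL/6 mice aged 6 to 8 weeks, whereas the methods of the study name ICR mice for the precursors. Neither says whether the libraries of a condition came from separate cultures or animals, so the p-values measure only the spread between these libraries, which may be technical.

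The pump is built from a cytosolic V1 sector, which hydrolyses ATP, and a membrane V0 sector, through which the protons pass. Several positions in the complex can be filled by products of different genes. At the a position, Tcirg1 encodes a3, the isoform of the osteoclast ruffled border, whose loss causes osteopetrosis, while a1 (Atp6v0a1) and a2 (Atp6v0a2) are the forms of other cells and compartments. At the d position, d1 (Atp6v0d1) is ubiquitous and d2 (Atp6v0d2) is restricted to a few cell types, osteoclasts among them.

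Promoter sequence was printed for 3 of these genes because lysosomal genes, the pump among them, are known targets of MiT/TFE transcription factors, which bind the letters TCACGTGA or the shorter core CACGTG. Both motifs read the same on either strand, and every TCACGTGA holds a CACGTG. The RefSeq promoter windows (mouse build GRCm38.p6, 250 bases before to 50 bases after a start site) covered 6 of the 10 genes. Of all 32851 windows, 0.974% held TCACGTGA and 7.15% held CACGTG. Among the 6 genes with a window, 2 held TCACGTGA, Atp6v0d1 and Atp6v1a, and the same 2 held CACGTG. A gene was counted if any of its windows held the motif, and the 6 genes have 10 windows, so these counts per gene are not on the scale of the shares per window. The stretches below are 80 bases long and run 5′ to 3′ on the minus strand, on which all 3 genes lie. They are chr8:105566055-105566134 for Atp6v0d1, where the motif begins 4 bases before the start site, chr16:44139348-44139427 for Atp6v1a, where it begins 132 bases before it, and chr19:3907134-3907213 for Tcirg1, the bases just before its start site, shown as a member whose window held neither motif. Capitals mark TCACGTGA. A match is a description of these letters and not a measured binding site.
Atp6v0d1: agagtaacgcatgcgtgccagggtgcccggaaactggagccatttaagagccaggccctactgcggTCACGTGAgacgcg
Atp6v1a: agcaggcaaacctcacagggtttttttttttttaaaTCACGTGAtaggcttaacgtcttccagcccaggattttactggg
Tcirg1: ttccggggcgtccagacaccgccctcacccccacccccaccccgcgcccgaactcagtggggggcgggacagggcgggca

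The libraries held 29390065 to 34846269 mapped reads, which put between 981 and 30534 reads on each of the 10 genes in each library. The 5 osteoclast markers (Acp5, Ctsk, Mmp9, Calcr and Ocstamp) summed to 37.7 to 38.6 RPKM without RANKL, 1662 to 1879 with RANKL and 287 to 326 with RANKL plus LE, and the 5 macrophage markers (Adgre1, Csf1r, Cd68, Itgam and Mertk) to 1327 to 1433, 791 to 901 and 702 to 853. Among the macrophage markers, Itgam went against the sum, with means of 70.5, 90.2 and 104 RPKM in the same order. Adgre1 (102 RPKM in +R and 148 in R+LE) and Mertk (2.29 and 3.48) were also higher in R+LE than in +R. Csf1r (206 and 185.2) and Cd68 (444.9 and 336.5) were lower. Neutrophil markers summed to 10.8 to 11.1, 0.66 to 0.816 and 0.564 to 2.53 RPKM and stromal and osteoblast markers to 7.50 to 8.64, 4.25 to 7.13 and 3.57 to 4.38. Each of these sums was nearly all from 1 gene. S100a8 had means of 10.5, 0.631 and 1.48 RPKM, and Ly6g, Elane and Camp were below 0.5 in every library. Col1a1 had means of 7.66, 5.53 and 3.80 RPKM, and Alpl, Bglap and Cxcl12 were below 0.5 in every library. Markers of B cells, T cells and dendritic cells each summed to less than 1 RPKM in every library. The osteoclast markers were highest in +R and remained above -R in R+LE. Of the 10 pump genes, 7 lay wholly higher in +R than in -R (40.3% of all genes) and 1 wholly lower (35.0% of all genes). The part of these markers in the results below was not tested. In such bulk samples, fewer osteoclasts and less RNA per osteoclast cannot be told apart. Changes below are differences of log2(RPKM + 0.5) from limma, with 95% intervals and p-values adjusted over all 11595 genes. The comparisons share libraries, so they are not independent of each other.

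RANKL was followed by a rise of 5 of the 10 genes at an adjusted p below 0.05, namely Tcirg1, Atp6v0c, Atp6v1b2, Atp6v1c1 and Atp6v1h, and by a fall of 1, Atp6v0a1. The other 4 did not pass. Among all genes tested, 23.9% were higher and 21.5% lower in +R than in -R by this rule. With a change of at least 2-fold also required, 0 of the 10 were higher (6.58% of all genes) and 1, Atp6v0a1, was lower (8.92% of all genes). Atp6v1b2 also passed the 2-fold rule as higher without +R replicate 2. Without -R replicate 2 only 2 genes, Atp6v1b2 and Atp6v1c1, passed as higher. Calls over all genes also fell without that library, so nothing particular to the pump genes is read from this drop. The median change of the 10 genes was 0.43 on the log2 scale, against 0.05 over all genes. Scaling mattered too. Rn45s, the ribosomal RNA precursor, took 6.83% and 4.97% of reads on genes in -R and 10.9% and 11.1% in +R. With Rn45s left out of the totals, 7 of the 10 genes were higher, Atp6v1b2 passed the 2-fold rule (1.007), and higher genes over all went from 2772 to 3574. Centring on the median and quantile normalization also gave 7 higher, with 3038 and 3142 higher over all genes.

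At the a position, Tcirg1 (mm10 chr19:3896050-3907133, minus strand) was at 145 and 122 RPKM with M-CSF alone, 188 and 203 with RANKL and 113 and 99.3 with RANKL plus LE. The +R pair was the highest and the R+LE pair the lowest, without overlap. Tcirg1 rose 1.46-fold with RANKL (log2 change 0.55, 95% interval 0.21 to 0.89, adjusted p = 0.0111) and fell 1.84-fold when LE was added (-0.88, -1.22 to -0.54, adjusted p = 0.00181). The rise did not pass without -R replicate 2 (adjusted p = 0.163) or without +R replicate 2 (0.0956). Against -R, R+LE differed by -0.33 (-0.67 to 0.01, adjusted p = 0.129).

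Atp6v0a1 (chr11:101009452-101063717, plus strand), which encodes the a1 isoform abundant in neurons, went the other way. It was at 43.3 and 43.9 RPKM with M-CSF alone, 8.06 and 8.63 with RANKL and 10.8 and 12.1 with RANKL plus LE. The 3 conditions did not overlap, and the lowest level was that of +R. The gene fell 4.99-fold with RANKL (-2.32, -2.61 to -2.03, adjusted p = 2.21e-09). With LE it was 1.35-fold higher than in +R (0.44, 0.15 to 0.72, adjusted p = 0.0485), a call that was lost under 9 of the 17 other settings, and it remained 3.69-fold lower than in -R (-1.88, -2.17 to -1.60, adjusted p = 4.30e-08).

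Atp6v0a2 (chr5:124629052-124724455, plus strand), whose a2 product is known from the Golgi and endosomes, was at 11.9 and 13.3 RPKM with M-CSF alone, 12.2 and 10.96 with RANKL and 13.8 and 12.6 with RANKL plus LE. The R+LE pair lay above the +R pair, and the -R pair overlapped both. No comparison passed, with adjusted p-values of 0.532 for +R against -R, 0.512 for R+LE against +R and 0.754 for R+LE against -R, and intervals that reached no further than -0.41 to 0.48 on the log2 scale. Of its exon bases, 12.4% are shared with the antisense gene 4930404A12Rik, and since reads were counted without strand the transcripts cannot be told apart there. This overlap was read from GENCODE M21, where the other 9 genes share no exon bases with another gene, but the table counted on another annotation, in which Atp6v0c shares its bases with the row described below.

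The share of each a isoform in the summed a-subunit RPKM does not depend on how libraries are scaled. The a3 share was 72.5% and 68.1% with M-CSF alone, 90.3% and 91.2% with RANKL and 82.1% and 80.1% with RANKL plus LE. The a1 share was 21.6% and 24.5% with M-CSF alone, 3.88% and 3.89% with RANKL and 7.89% and 9.75% with RANKL plus LE. The a2 share was 5.92% and 7.41% with M-CSF alone, 5.86% and 4.94% with RANKL and 10.0% and 10.1% with RANKL plus LE. The mean a3 share differed by 20.4 percentage points between +R and -R, by -9.62 points between R+LE and +R and by 10.8 points between R+LE and -R, and the libraries of the 3 conditions did not overlap. Between R+LE and +R the mean a1 share differed by 4.94 points and the mean a2 share by 4.68 points, also without overlap. The exact two-sided permutation p was 0.333 for each, the smallest that 2 libraries against 2 allow. The summed a-subunit level was 190 ± 14.9 RPKM (SD, n = 2) without RANKL, 215 ± 10.1 RPKM with RANKL and 131 ± 9.61 RPKM with RANKL plus LE. Atp6v0a4, the kidney form a4, had 0 to 2 reads in each library and was not tested.

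Atp6v0c (chr17:24163865-24169450, minus strand) encodes the c proteolipid, the ring that carries protons across the membrane, and was the most abundant of the 10 transcripts in each condition. It was at 464 and 432 RPKM with M-CSF alone, 852 and 759 with RANKL and 567 and 479 with RANKL plus LE. The +R libraries lay above all others. The rise with RANKL was 1.80-fold (0.84, 0.45 to 1.24, adjusted p = 0.00153), and with LE it was 1.54-fold lower (-0.63, -1.02 to -0.23, adjusted p = 0.0366). Without -R replicate 2 the rise did not pass (0.79). The fall was lost when low values were not filtered (adjusted p = 0.184) or only the +R and R+LE libraries were used (0.147). It was also lost without either -R or either +R replicate (-0.71 to -0.54). The row of the pseudogene Atp6v0c-ps2 covers nearly the same bases on the same strand and held nearly the same reads, 15678 to 30356 per library against 15933 to 30534, so it is no separate measurement.

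Atp6v0d1 (chr8:105524461-105566064, minus strand) encodes the ubiquitous d1 subunit, which joins the rotor of V1 to the c ring. Its levels were 69.9 and 72.5 RPKM with M-CSF alone, 71.5 and 61.3 with RANKL and 66.4 and 52.7 with RANKL plus LE, with +R overlapping both other conditions. None of its comparisons passed (-0.11, -0.44 to 0.23, adjusted p = 0.616 for RANKL, and -0.16, -0.50 to 0.18, adjusted p = 0.633 for LE against +R). Atp6v0d2 at the same position was at 2.93 and 3.57 RPKM with M-CSF alone, 176 and 147 with RANKL and 36.5 and 28.5 with RANKL plus LE. It rose 43.2-fold with RANKL (5.43, adjusted p = 1.93e-12), fell 4.93-fold with LE (-2.30, adjusted p = 3.84e-07) and was still 8.77-fold higher in R+LE than in -R (adjusted p = 1.23e-09). The d1 share of d-subunit RPKM averaged 95.6% without RANKL, 29.1% with it and 64.7% once LE was added, and the summed d-subunit level was 74.5, 228 and 92.1 RPKM.

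**Figure D1:**
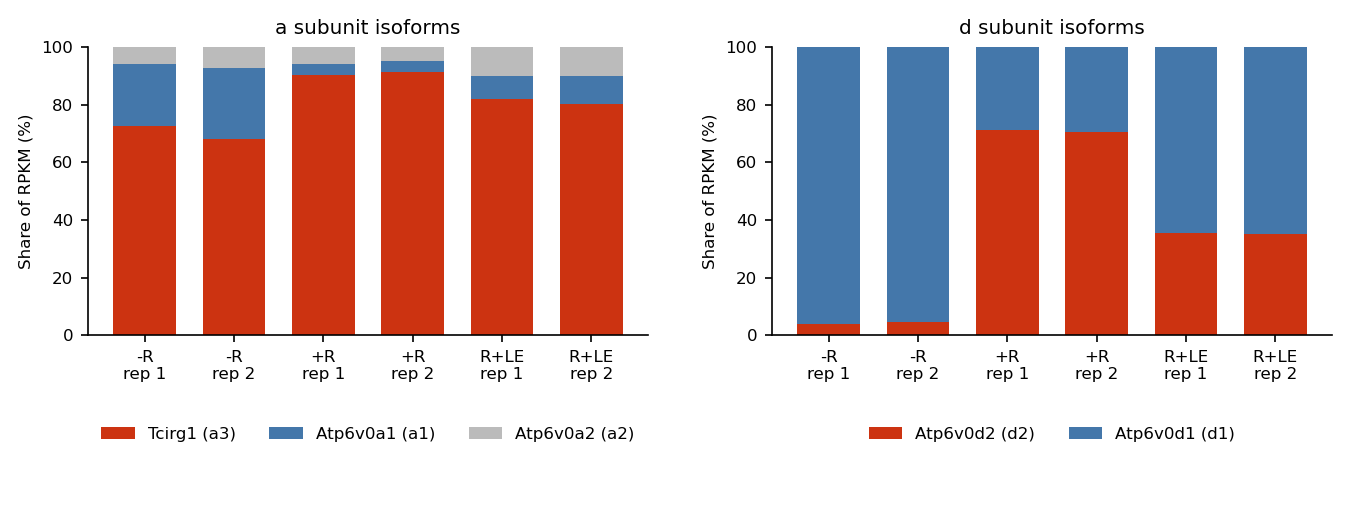
Share of each isoform in the summed RPKM of the a subunit (left) and the d subunit (right) in each of the 6 libraries, in percent, with 1 stacked bar per library. The a3 share lies at 68.1% to 72.5% in -R, 90.3% to 91.2% in +R and 80.1% to 82.1% in R+LE, and the d1 share is lowest in +R.

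In the V1 sector, Atp6v1b2 (chr8:69088736-69113717, plus strand) changed most among the 10 genes when LE was added. It encodes B2, the nucleotide-binding partner of the catalytic A subunit, and was at 161.4 and 176 RPKM with M-CSF alone, 353 and 293 with RANKL and 160.5 and 121 with RANKL plus LE. Both +R libraries were above all others. R+LE lay below -R in both libraries, by less than 1 RPKM between the nearest, and the difference did not pass (-0.275, -0.657 to 0.107, adjusted p = 0.259). Atp6v1b2 rose 1.91-fold with RANKL (0.93, 0.55 to 1.31, adjusted p = 0.000584) and fell 2.31-fold with LE (-1.21, -1.59 to -0.82, adjusted p = 0.00034). Its paralog Atp6v1b1, the form of kidney and inner ear, had 0 to 4 reads in each library.

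Atp6v1c1 (chr15:38661904-38692444, plus strand) encodes C1, a stator subunit that takes part in the reversible assembly of V1 with V0. Its levels were 70.3 and 69.3 RPKM with M-CSF alone, 119 and 107 with RANKL and 67.4 and 50.4 with RANKL plus LE. The conditions did not overlap, +R being the highest and R+LE the lowest. The gene rose 1.61-fold with RANKL (0.69, 0.34 to 1.03, adjusted p = 0.00293) and fell 1.92-fold with LE (-0.94, -1.29 to -0.59, adjusted p = 0.00116). The paralog Atp6v1c2 had 3 to 6 reads in each library, so C1 made up at least 99.79% of C-subunit RPKM.

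Atp6v1a (chr16:44085404-44139259, minus strand), for the catalytic A subunit, was at 116 and 131 RPKM with M-CSF alone, 172 and 154 with RANKL and 115 and 85.4 with RANKL plus LE. The +R libraries were again the highest, but the change with RANKL did not pass (0.40, 0.03 to 0.77, adjusted p = 0.0714), although it did under 8 of the 17 other settings (adjusted p 0.00667 to 0.035). With LE, Atp6v1a fell 1.64-fold (-0.71, -1.08 to -0.34, adjusted p = 0.0126). The fall did not pass when low values were not filtered (adjusted p = 0.11) or only the +R and R+LE libraries were used (0.056). Nor did it pass without either -R replicate or without +R replicate 1 (-0.71 to -0.63).

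Atp6v1e1 (chr6:120795244-120822698, minus strand), which encodes a peripheral stalk subunit, was at 93.2 and 91.4 RPKM with M-CSF alone, 128 and 104 with RANKL and 84.9 and 71.8 with RANKL plus LE. It did not pass with RANKL (0.32, -0.02 to 0.66, adjusted p = 0.114), except under 7 other settings (adjusted p 0.0104 to 0.0497), and fell 1.48-fold with LE (-0.56, -0.90 to -0.22, adjusted p = 0.0313). That fall did not pass when low values were not filtered (adjusted p = 0.12) or only the +R and R+LE libraries were used (0.099). Nor did it pass without either -R replicate, +R replicate 1 or R+LE replicate 2 (-0.56 to -0.41). The testis form Atp6v1e2 had at most 1 read in a library.

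Atp6v1h (chr1:5083086-5162549, plus strand) encodes the regulatory H subunit and was at 45.3 and 44.2 RPKM with M-CSF alone, 67.0 and 57.4 with RANKL and 50.4 and 38.5 with RANKL plus LE. The R+LE libraries lay on either side of the -R libraries. Atp6v1h rose 1.38-fold with RANKL (0.47, 0.13 to 0.81, adjusted p = 0.0257). It did not pass as higher when low values were not filtered (adjusted p = 0.0798). It also did not pass without either -R replicate (0.49 and 0.45) or without +R replicate 1 (0.36). Its difference between R+LE and +R did not pass (-0.49, -0.83 to -0.15, adjusted p = 0.0609), except under 7 other settings (adjusted p 0.0063 to 0.0464).

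**Figure D2:**
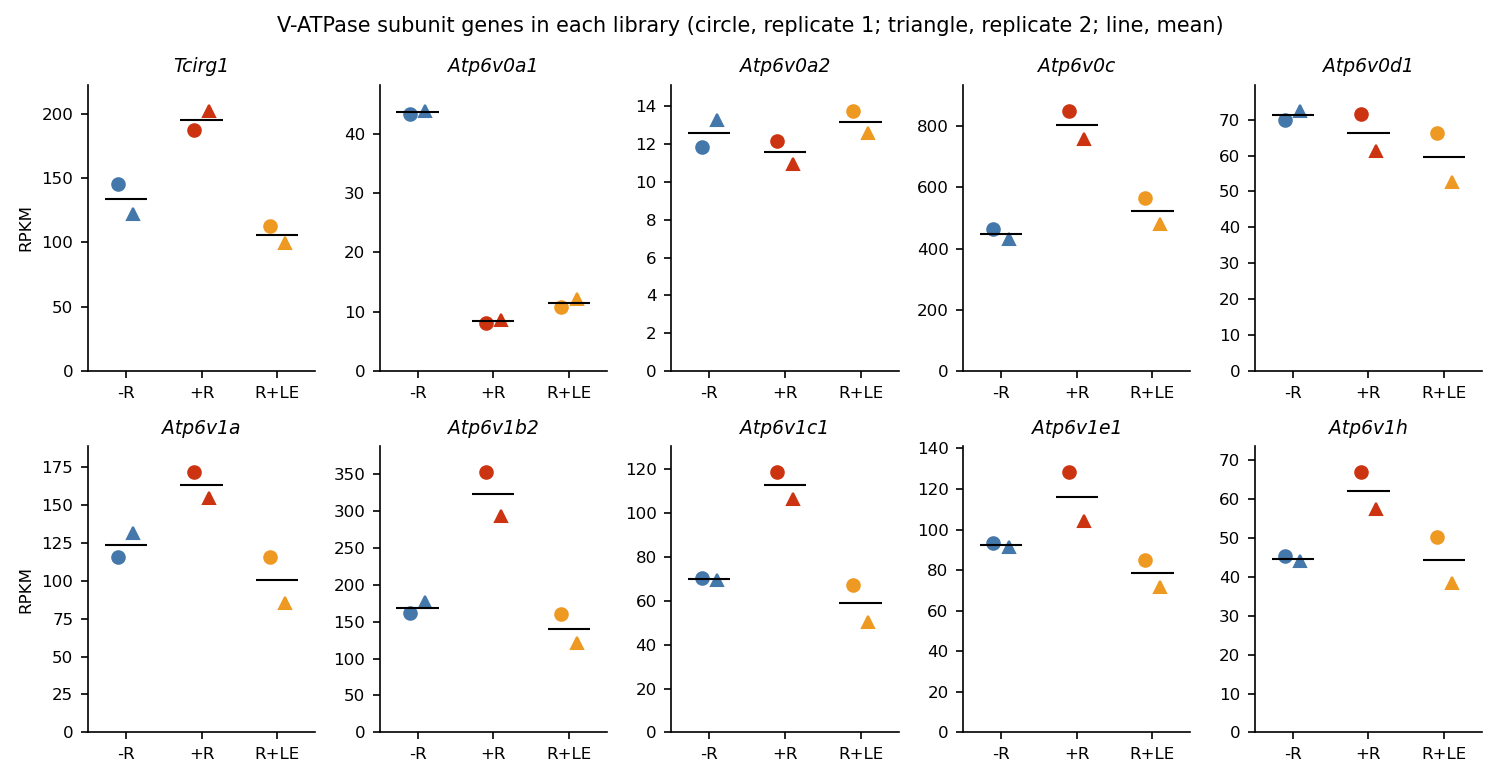
RPKM of each of the 10 subunit genes in the 6 libraries (circles, replicate 1; triangles, replicate 2; horizontal lines, means), with a separate vertical axis for each gene that starts at 0. The +R libraries are the highest for Tcirg1, Atp6v0c and the V1 genes, and Atp6v0a1 drops from 43.3 to 43.9 RPKM in -R to 8.06 to 8.63 in +R.

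When LE was added to RANKL, 6 of the 10 genes were lower than in +R at an adjusted p below 0.05 (Tcirg1, Atp6v0c, Atp6v1a, Atp6v1b2, Atp6v1c1 and Atp6v1e1) and 1 was higher, Atp6v0a1. Over all genes tested, 6.86% were lower and 5.19% higher. With at least 2-fold required, 1 of the 10 was lower, Atp6v1b2 (1.78% of all genes), and 0 were higher (1.46% of all genes). Atp6v1c1 was the second gene lower by that rule without +R replicate 2 or without R+LE replicate 1. The median change was -0.59, against -0.05 over all genes. Calls over all genes also changed with the setting. They went from 602 higher and 795 lower to 457 and 586 with only the +R and R+LE libraries. Tcirg1, Atp6v1b2 and Atp6v1c1 were lower under every one of the 17 other settings, with adjusted p-values of at most 0.0459, whereas only 3 genes were lower without either -R replicate or without +R replicate 1, and also when low values were not filtered or only the +R and R+LE libraries were used.

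In -R, replicate 2 lay below replicate 1 in 5 of the 10 genes. In +R it did so in 8, with a median gap of -0.16 on the log2 scale against -0.08 over all genes tested. The share of reads on genes in +R was 80.7% in replicate 1 and 76.3% in replicate 2. Replicate 2 of R+LE lay below replicate 1 in 9 of the 10 genes, with a median gap of -0.29 against -0.13 over all genes tested. Its share of reads on genes was 74.2%, against 80.5% in replicate 1, and Rn45s took 13.5% of these reads, against 11.2%. Without this library 5 of the 6 genes still passed as lower than +R, and Atp6v1e1 did not pass (adjusted p = 0.0866).

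R+LE against -R gave 1 gene lower, Atp6v0a1 (19.0% of all genes), and 0 higher (15.3% of all genes), and limma's voom on the recovered reads also gave 1 and 0. By the 2-fold rule the counts were the same, against 6.36% of all genes lower and 3.92% higher. Of the 9 that did not pass, all had an unadjusted p above 0.05, and their changes lay between -0.33 and 0.22. Both R+LE libraries lay below both -R libraries for 7 of the 10 genes (34.3% of all genes) and above them for 1, Atp6v0c (31.2% of all genes). For Atp6v1b2 and Atp6v1a, among the 7, the nearest libraries were at 160.5 against 161.4 and 115.4 against 115.7 RPKM. Without R+LE replicate 1 the number lower was 6, with Tcirg1, Atp6v0d1, Atp6v1a, Atp6v1b2 and Atp6v1c1 added. All genes also moved lower without R+LE replicate 1, with a median of -0.066 against -0.01, so nothing particular to the pump is read from that number. Rn45s, the ribosomal RNA precursor, took 4.97% to 13.5% of reads on genes. With it left out of the totals, the median of all genes in this comparison moved by 0.11 to 0.10. The higher genes then went from 44.6% to 61.0% of all calls, and Atp6v0c passed as higher (0.34, adjusted p = 0.0394).

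**Figure D3:**
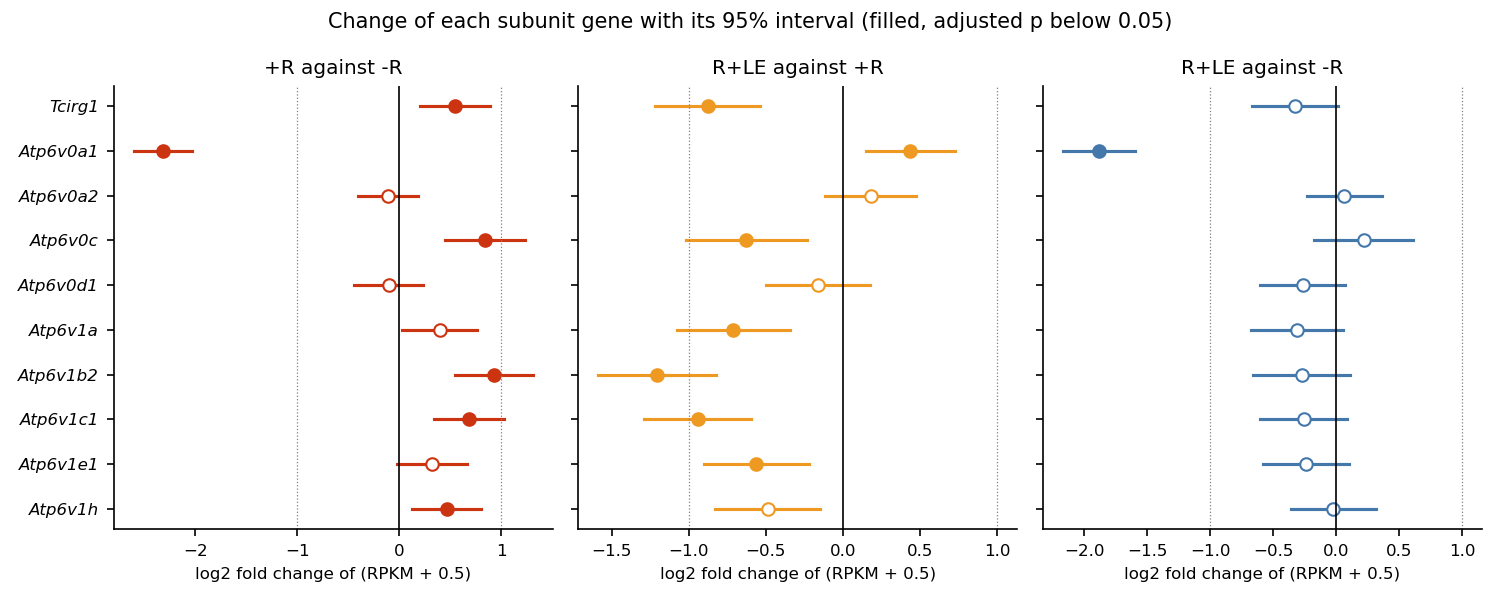
Change of each of the 10 genes on the log2(RPKM + 0.5) scale with its 95% interval in +R against -R (left), R+LE against +R (middle) and R+LE against -R (right), from limma over 2 libraries per condition. Filled points have an adjusted p below 0.05 and dotted lines mark a 2-fold change, which Atp6v0a1 exceeds on the left and right and Atp6v1b2 in the middle.

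The ratio of Tcirg1 to each of the 9 other subunit genes was taken within a library. Tcirg1 was not restricted to the cultures with RANKL. In -R it had a mean of 134 RPKM, and the a3 share of a-subunit RPKM averaged 70.3%. With RANKL the log2 ratio of Tcirg1 to Atp6v0a1 went from 1.60 to 4.47, that to Atp6v0d1 from 0.90 to 1.55 and that to Atp6v0a2 from 3.36 to 4.02. The ratio to Atp6v1b2 differed by -0.38 and that to Atp6v0c by -0.30. These 5 ratios did not overlap between +R and -R, and the 4 others, to Atp6v1a, Atp6v1c1, Atp6v1e1 and Atp6v1h, did. The ratio of Tcirg1 was thus higher in +R to a1, a2 and d1 and lower to the 2 most abundant subunits. With LE, 7 of 9 ratios did not overlap between R+LE and +R. The ratio to Atp6v0a1 differed by -1.31 and that to Atp6v0d1 by -0.72, while the ratio to Atp6v1b2 was higher by 0.33. Each exact two-sided permutation p was at least 0.333, or 0.429 and above when adjusted over the 9 pairs. All 9 ratios share Tcirg1, so they are not separate observations. No share over all genes was computed for ratios. By level, 40.3% of all genes tested lay wholly higher and 35.0% wholly lower in +R than in -R. For R+LE against +R these shares were 19.5% and 29.5%. Nothing particular to Tcirg1 is read from the counts of ratios without overlap.

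In RPKM, which is per length, the order Atp6v0c, Atp6v1b2, Tcirg1, Atp6v1a and Atp6v1e1 from the highest down held in all 3 conditions. In -R the means of these 5 were 448, 169, 134, 123 and 92.3 RPKM. Tcirg1 and Atp6v1a did not differ beyond the range of their libraries in -R and R+LE, nor did Atp6v0d1 and Atp6v1c1. In +R the same held for Atp6v1e1 and Atp6v1c1 and for Atp6v0d1 and Atp6v1h. Atp6v0a1 stood above Atp6v0a2 in -R, with 43.6 against 12.6 RPKM, and below it in +R (8.35 against 11.6) and R+LE (11.5 against 13.2).

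The genes whose log2 levels most resembled those of Tcirg1 over the 6 libraries were Trmt1 (Pearson r = 0.993), Mbd3 (0.992), Morn2 (0.987), Chst10 (0.985) and Ckb (0.979). Among the pump genes, r with Tcirg1 was 0.949 for Atp6v1c1 and 0.925 for Atp6v1b2, and it was -0.31 for Atp6v0a1 and -0.76 for Atp6v0a2. The mean of the 10 genes was most like Atp6v1g1 (0.994), another subunit of the pump, followed by Arsa, Gas2l3, Aig1 and A430057M04Rik. The 6 points of each correlation come from 3 conditions and share their libraries and scaling.

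The table held 13 other subunit genes, of which 8 were tested. With RANKL 3 of them rose and 1 fell, with LE 0 were higher and 5 lower than in +R, and in R+LE against -R 1 was higher and 1 lower. The shares of all genes, higher and lower, were 23.9% and 21.5%, 5.19% and 6.86%, and 15.3% and 19.0% for these comparisons, and they apply to the next lists as well. Besides Atp6v0d2, only Atp6v1d passed the 2-fold rule. It encodes a subunit of the central rotor and was at 30.1 and 31.2 RPKM with M-CSF alone, 89.0 and 75.5 with RANKL and 38.5 and 29.7 with RANKL plus LE. The rise was 2.65-fold (1.41, adjusted p = 3.31e-06) and the fall with LE 2.40-fold (-1.26, adjusted p = 7.03e-05).

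Of 13 accessory and assembly genes, 5 rose and 3 fell with RANKL, and 1 was higher and 3 lower with LE. Against -R, 1 was higher and 2 lower in R+LE. With RANKL, 23.9% of all genes rose and 21.5% fell, and nothing particular to this list is read from its counts. Dmxl1, a member of the complex that assembles V1 with V0, was at 8.01 and 10.6 RPKM with M-CSF alone, 14.4 and 19.6 with RANKL and 8.55 and 7.70 with RANKL plus LE, and was lower with LE by the 2-fold rule (-1.01, adjusted p = 0.00101).

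Among 7 genes that act with the pump in acid secretion and vesicle transport, 4 rose and 1 fell with RANKL, 0 were higher and 5 lower with LE, and R+LE against -R gave 2 higher and 1 lower. For that comparison 15.3% of all genes were higher and 19.0% lower. Clcn7, the chloride-proton exchanger of the ruffled border, was at 14.6 and 16.7 RPKM with M-CSF alone, 32.2 and 28.7 with RANKL and 14.1 and 13.6 with RANKL plus LE, a fall of 2.16-fold with LE (adjusted p = 7.26e-05). Slc4a2, the bicarbonate-chloride exchanger, was at 26.2 and 25.8, 61.8 and 62.2, and 26.3 and 24.7 RPKM, a rise of 2.36-fold (adjusted p = 2.50e-06) and a fall of 2.40-fold (adjusted p = 1.59e-05). For neither gene did R+LE against -R pass (adjusted p = 0.379 and 0.901). Both R+LE libraries of Clcn7 lay below both -R libraries (-0.17, -0.47 to 0.13). Car2, the carbonic anhydrase that supplies protons, had 1 and 0 reads in -R and was at 60.9 and 57.0 RPKM in +R and 9.15 and 6.59 in R+LE, a fall of 7.18-fold with LE (adjusted p = 3.71e-08). Snx10, a sorting nexin required for resorption, was at 28.5 and 30.1, 82.4 and 70.5, and 52.9 and 39.6 RPKM, and rose 2.58-fold with RANKL and fell 1.66-fold with LE. Plekhm1, an adaptor of lysosome transport, fell 2.52-fold with RANKL, from 33.4 and 33.1 to 13.3 and 12.5 RPKM, and a further 1.36-fold with LE (adjusted p = 0.0461).

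**Figure D4:**
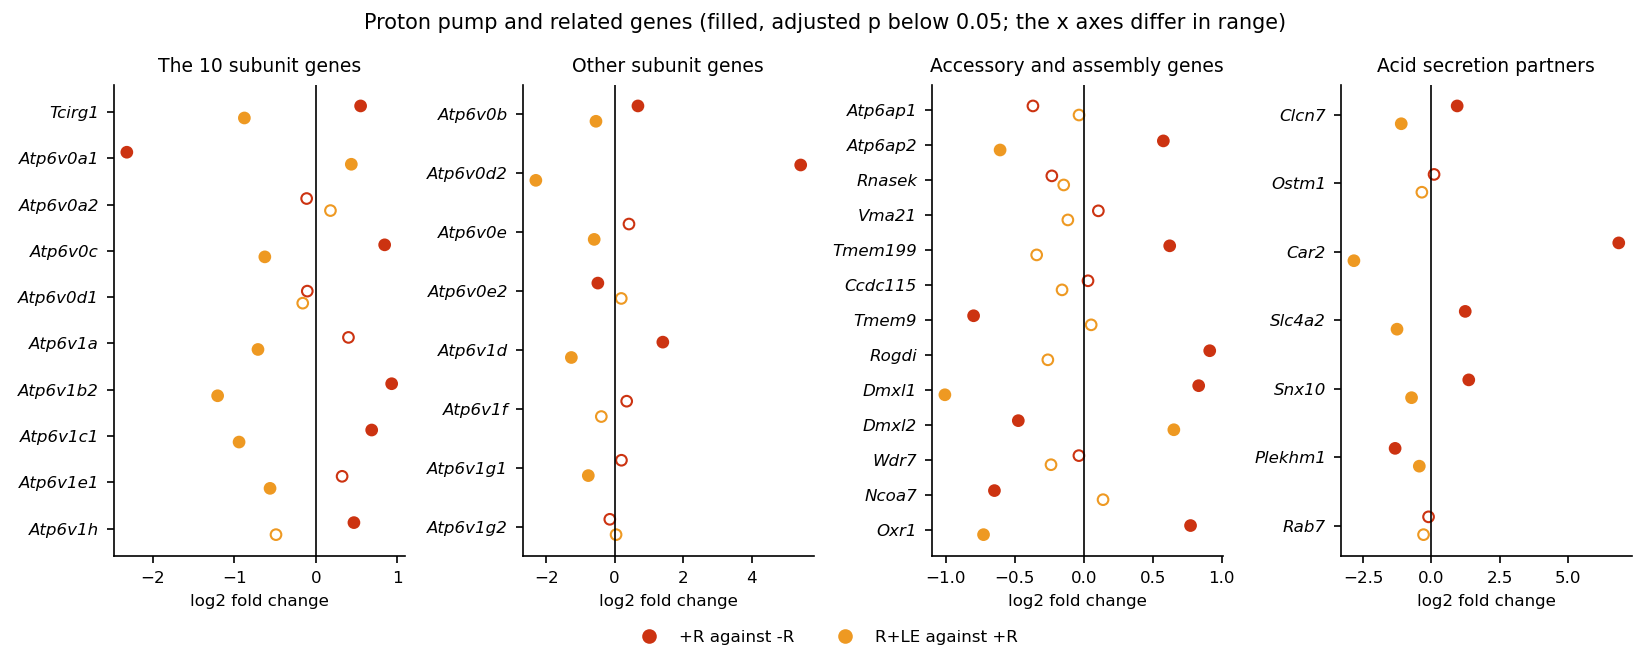
Change on the log2(RPKM + 0.5) scale with RANKL (+R against -R) and with LE (R+LE against +R) for the 10 subunit genes, 8 other subunit genes, 13 accessory and assembly genes and 7 acid secretion partners, in panels whose horizontal axes differ in range. Filled points have an adjusted p below 0.05, and most genes that rise with RANKL in the subunit panels lie left of 0 with LE.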

How the data were processed

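The authors aligned paired reads of 100 bp to mm10 and counted exon reads for 1 transcript per gene with HOMER, without regard to strand, and deposited the values as RPKM, under column titles that say FPKM. The methods name TopHat, while the submitters' processing notes name HISAT2, HOMER and DESeq2. Versions are not given in the sources used here. Symbols turned into dates by a spreadsheet were restored from transcript identifiers for 26 genes.

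Samples were grouped by the labels, which number replicates 1 and 2. For the 11595 genes that averaged 0.5 RPKM or more, log2(RPKM + 0.5) was fitted with limma 3.58.1 in R 4.3.3 (group means of all 6 libraries, empirical Bayes with a variance trend, Benjamini-Hochberg adjustment). Genes were called at an adjusted p below 0.05, with and without a change of at least 2-fold. A fold change on this scale understates the change of low genes. Shares and ratios were compared by exact two-sided permutation tests. The scripts were tested on simulated data. Depth was recovered from RPKM, transcript length and read steps, with at least 99.94% of checked values within 0.05 of whole reads. Each of the 10 genes had at least 981 reads in each library.

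All 10 genes are named. From lists of other subunits, accessory and assembly genes and acid secretion partners, those called with a 2-fold change in +R against -R or R+LE against +R are named, with paralogs of the 10 genes at the same position and the 5 genes most like Tcirg1 and most like the mean. The 10 genes and the lists were chosen with earlier results of these data known. Exon overlap was read from GENCODE M21 and promoters from RefSeq. Python 3.11.15, numpy 2.4.6, pandas 2.3.3 and matplotlib 3.10.9 were used. The 17 alternatives are given in the closing section.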

Additional observations from a re-analysis of the deposited data

How the results depend on the processing

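With 2 libraries per condition, the limits of these results lie partly in the replicates. Scaling, the filter on low values and the choice of libraries fitted together also moved the counts. A fit without 1 library assumes that the lone library left in its condition varies like the others. The cause of a changed call was not tested unless stated. Among the recomputed changes of the 10 genes, 441 kept their direction and side of the threshold, 33 no longer passed, 29 newly passed and 7 changed sign. The 441 are no measure of robustness, since many could not change sign. Leaving out a library outside the comparison, the filter or the variance trend leaves the log2 change as it was. Genes that passed neither before nor after are also among the 441. Calls over all genes changed with the setting too, so nothing particular to the pump genes is read from the counts below. The number of genes past the 2-fold rule in +R against -R was 2 when Rn45s was left out of the totals and 1 to 2 when single libraries were left out, and the number higher was 2 to 7 (2 without -R replicate 2). In R+LE against +R, leaving out single libraries gave 1 to 2 genes past the 2-fold rule, 3 to 7 lower and 0 to 1 higher. The rise of Atp6v0a1 did not pass with a pseudocount of 1, with no filter, with no variance trend or with only the 2 groups compared, so 0 genes were higher there, and 3 were lower with no filter or with only the 2 groups compared. Without the filter, 18427 genes were tested and 241 higher and 340 lower genes were called, against 602 and 795 in 11595. In R+LE against -R, 1 gene (Atp6v0c) was higher under quantile normalization and with Rn45s left out, and leaving out single libraries gave 1 to 6 lower. Over all genes this comparison called 1773 higher and 2201 lower, against 950 and 1505 without -R replicate 1 and 1185 and 1426 without -R replicate 2. In R+LE against +R the higher genes made up 43.1% of all calls, 32.7% without R+LE replicate 1 and 53.6% without R+LE replicate 2. Changes of sign, none of a gene past the threshold, were seen for Atp6v0d1 in +R against -R (-0.215 to 0.006 with single libraries left out) and in R+LE against +R (-0.326 to 0.004), for Atp6v0a2 in R+LE against -R (-0.013 to 0.145) and for Atp6v1h in R+LE against -R (0.033 centred on the median, 0.107 under quantile normalization, 0.099 with Rn45s left out and -0.213 to 0.17 with single libraries left out). With single libraries left out, the C1 share differed by -0.0117 to 0.0951 points in +R against -R and -0.0996 to 0.00709 in R+LE against -R, and the B2 share by -0.00221 to 0.0161 in R+LE against +R and -0.00981 to 0.00426 in R+LE against -R. The log2 ratio of Tcirg1 to Atp6v1a differed by -0.067 to 0.363 and that to Atp6v1h by -0.084 to 0.247 in +R against -R, and that to Atp6v1c1 by -0.069 to 0.197 in R+LE against +R. In R+LE against -R the range was -0.214 to 0.088 for the ratio to Atp6v0d1, -0.234 to 0.196 for Atp6v1a, -0.241 to 0.133 for Atp6v1b2, -0.187 to 0.043 for Atp6v1c1 and -0.200 to 0.022 for Atp6v1e1. The replicate numbers are not stated to pair the libraries, and the correlation of same-numbered deviations was -0.05, 0.11 and 0.25 in the 3 pairs of conditions. With the replicate number as a block, the counts were 6 higher and 1 lower in +R against -R, 1 and 7 in R+LE against +R, and 0 and 1 in R+LE against -R. Over all genes the block gave 3059 higher and 2687 lower, 756 and 1036, and 2049 and 2439, in the same order. Without the block these were 2772 and 2490, 602 and 795, and 1773 and 2201. On the recovered whole reads, limma's voom called 3104 higher and 2775 lower genes in +R against -R, 828 and 1025 in R+LE against +R, and 2298 and 2461 in R+LE against -R.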
